A study of Mus musculus with 9 samples.

Results

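The genes described are nucleolar ribosome assembly factor genes, whose products fold, cut, modify and package ribosomal RNA (rRNA) in the nucleolus. They were listed by function, by a rule that uses no measured value. They were chosen with earlier results of these data known, 50 genes in all. Of these, 49 were found among the 22367 protein-coding genes of the GENCODE M1 annotation of the mm9 mouse genome, and the remaining gene, Noc2l, was not matched by name. What was read at them is chromatin immunoprecipitation sequencing (ChIP-seq) of UBTF, the architectural protein that opens rRNA genes for RNA polymerase I. The series holds 9 samples, of which 6 are UBTF libraries with a peak list and 3 are input samples that were not analysed here.

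The wild type cells came from C57BL/6 mice aged 4 to 6 weeks, the premalignant cells from Eµ-Myc mice of the same age, and the malignant cells from Eµ-Myc mice aged 10 to 20 weeks with spontaneous lymphoma. The Eµ-Myc mice were heterozygotes on the C57BL/6 background and carry the MYC oncogene under the control of the immunoglobulin heavy chain enhancer, which is active in B lymphocytes. The labels give 1 sort for all stages, bone marrow pre-B cells with high B220, low IgM and low IgD. The study's methods give that gate for wild type and premalignant cells, and describe the malignant cells as transformed pre-B cells positive for B220 and negative for IgM and IgD, so for the malignant cells the gate and the stage cannot be told apart. Each stage had 2 UBTF libraries, described in the study's methods as biological replicates. The same holds for their age. UBTF near a gene is not a level of its RNA, so the lists give no check of the cell type by expression. Of 12 pre-B cell marker genes, between 3 and 5 had a UBTF summit within 1 kb of a start in a list, and of 11 markers of other marrow cells, 0 or 1 had one.

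Ribosomes begin as a long precursor rRNA made by RNA polymerase I. Small nucleolar ribonucleoproteins (snoRNPs) modify its nucleotides, the small subunit processome folds and cuts the part that becomes the small subunit, and other assembly factors build the large subunit. The genes for these factors are transcribed by RNA polymerase II, many are known targets of MYC, and their promoters often hold the E-box CACGTG, the sequence that MYC and its partner MAX bind. UBTF is known mainly from rRNA genes, but it also occupies sites at genes of RNA polymerase II.

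Each list gives summits, the positions of highest enrichment, with a score of the peak caller SPP that is not scaled between libraries. A gene counts as listed where a summit lay within 1000 bp of any of its annotated transcript starts. For its own comparisons the study kept only peaks common to replicates that passed a reproducibility threshold. That step was not applied here, so being listed rests on the peak calls of a single library. How often a start is listed by chance, above all in the longest lists, was not tested. The best such summit is given by its rank percentile, where 100 is the best score of that list. The lists held 78113 to 575674 peaks, and their read depth is unknown. Peaks were at least 240 to 260 bp wide in the wild type pair and in premalignant replicate 1, called the narrow set here. They were at least 670 to 800 bp wide in the 3 remaining libraries, called the wide set. For wild type against malignant, width set and stage cannot be told apart. Premalignant replicate 2 and malignant replicate 2 stood apart from the other libraries. Across the 2314 genes listed in all libraries, their ranks correlated at 0.546 with each other and at 0.237 and 0.301 with the other library of their own stage (Pearson r of normal scores, a description, since genes are not replicates). Malignant replicate 1, although in the wide set, correlated at 0.462 with wild type replicate 1 and 0.452 with premalignant replicate 1.

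Sequences at 3 members are shown first, because their summits lay on simple tandem repeats, defined as at least 40 bp of a unit of 1 to 6 bp within the 201 bp around the summit. All are reference mm9 sequence in the direction of the gene, centred on the summit of 1 library, with the longest repeat in capitals. The Dkc1 stretch (chrX:72346190-72346340, plus strand) lies around an intronic summit of wild type replicate 1. The Ddx18 stretch (chr1:123465429-123465579, minus strand) is intergenic, upstream of the gene, around a summit of the same library. The Noc4l stretch (chr5:111081670-111081820, minus strand) is around an intronic summit of wild type replicate 2.
Dkc1: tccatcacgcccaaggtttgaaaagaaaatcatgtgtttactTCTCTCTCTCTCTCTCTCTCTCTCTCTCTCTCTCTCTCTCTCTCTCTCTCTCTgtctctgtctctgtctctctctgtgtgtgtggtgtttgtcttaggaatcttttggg
Ddx18: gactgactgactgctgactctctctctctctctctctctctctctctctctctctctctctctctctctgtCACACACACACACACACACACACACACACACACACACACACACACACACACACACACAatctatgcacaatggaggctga
Noc4l: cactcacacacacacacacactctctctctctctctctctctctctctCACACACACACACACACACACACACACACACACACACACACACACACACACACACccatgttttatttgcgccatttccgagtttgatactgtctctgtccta
The Dkc1 stretch held 53 bp of an alternating TC repeat, and the Ddx18 and Noc4l stretches held 58 bp and 55 bp of a CA repeat. The Ddx18 stretch also held a CT repeat of more than 40 bp just before it, left in lower case.

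The next 3 stretches show positions without a tandem repeat, at members that were among the best ranked in malignant replicate 2. They do not stand for all such summits. In the 201 bp around a summit of that library, the median GC was 54.5% over all listed members. Over other listed protein-coding genes it was 73.1%. Among member summits off repeats it was as low as 35.8%, at Mybbp1a. Capitals mark CG dinucleotides. The stretches lie around summits of that library at Wdr43 (chr17:71965882-71965982, plus strand, intron), Utp18 (chr11:93746609-93746709, minus strand, coding exon and the intron after it) and Rrs1 (chr1:9535782-9535882, plus strand, coding exon), and held 20, 13 and 13 CG dinucleotides in 101 bp.
Wdr43: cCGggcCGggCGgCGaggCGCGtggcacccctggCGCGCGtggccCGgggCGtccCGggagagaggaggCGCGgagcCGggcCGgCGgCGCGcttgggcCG
Utp18: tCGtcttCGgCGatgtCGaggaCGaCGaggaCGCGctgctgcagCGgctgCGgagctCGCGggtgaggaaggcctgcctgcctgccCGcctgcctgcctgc
Rrs1: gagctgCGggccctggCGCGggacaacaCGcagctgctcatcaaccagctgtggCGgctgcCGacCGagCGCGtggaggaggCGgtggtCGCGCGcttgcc

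E-boxes are shown for the 4 members that had one within 500 bp of the gene's 5′ end and no UBTF summit in any list. They were 4 of the 9 members listed nowhere, and 25 of all 49 members had an E-box. The 4 are examples and no measure of how the motif and the summits go together. Capitals mark CACGTG, which reads the same on both strands. The windows are Nat10 (chr2:103601352-103601381, minus strand), Ebna1bp2 (chr4:118293481-118293510, plus strand), Pes1 (chr11:3863968-3863997, plus strand) and Rrp12 (chr19:41970638-41970667, minus strand).
Nat10: tgagcacttgccCACGTGctgtctgccact
Ebna1bp2: gctgcttgtgggCACGTGgagtggcagccg
Pes1: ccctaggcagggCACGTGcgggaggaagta
Rrp12: gctgaggacacaCACGTGggttctgccgtg
The first base of the box lay 58 bp, 89 bp and 2 bp downstream of the start in Nat10, Ebna1bp2 and Pes1, and at -12 bp, upstream of it, in Rrp12. Nat10 had 4 such boxes and Ebna1bp2 had 2 within 500 bp.

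Over all members, UBTF summits near starts were neither general nor rare, and the number of listed members differed as much within a stage as between stages. In wild type cells, 17 members were listed in replicate 1 and 28 in replicate 2 (34.7% and 57.1% of 49, with 95% Clopper-Pearson intervals of 21.7 to 49.6% and 42.2 to 71.2%). In premalignant cells, 20 and 15 were listed (40.8%, interval 27.0 to 55.8%, and 30.6%, interval 18.3 to 45.4%). In malignant cells, 34 and 18 were listed (69.4%, interval 54.6 to 81.7%, and 36.7%, interval 23.4 to 51.7%). Malignant replicate 1 was the highest of the 6 libraries and premalignant replicate 2 the lowest. The intervals cover counting error only, and genes are not replicates. For values given in pairs, replicate 1 comes before replicate 2. The share of the 22318 other protein-coding genes listed in the same way was 36.5% and 45.5% in the wild type pair, 22.3% and 33.7% in the premalignant pair, and 47.5% and 41.1% in the malignant pair. Members were above this background by 11.7 percentage points in wild type replicate 2, by 18.5 in premalignant replicate 1 and by 21.9 in malignant replicate 1. In the other 3 libraries they differed from it by -1.86, -3.11 and -4.38 points. The excess therefore did not keep to a stage or to a width set.

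Members differ from most genes in the base composition of their starts, so a closer background was also used. A start was called CpG-rich where the 500 bp on each side had at least 50% GC and a ratio of observed to expected CpG of at least 0.6. This held for 45 of 49 members (91.8%) and for 44.1% of other protein-coding genes. Among the 9834 other genes with CpG-rich starts, 60.7% and 72% were listed in the wild type pair, 37.6% and 49.9% in the premalignant pair, and 76.3% and 59.8% in the malignant pair. Members minus these genes came to -26.0 and -14.8 points in the wild type pair, 3.18 and -19.3 in the premalignant pair, and -6.89 and -23.1 in the malignant pair. With the 45 members that have CpG-rich starts themselves, these differences were -22.9 and -12.0 points in the wild type pair, 6.81 and -21.0 in the premalignant pair, and -0.721 and -22.0 in the malignant pair. By either count members were lower in 5 of 6 libraries. The sign of the comparison thus depended on the background in wild type replicate 2 and malignant replicate 1.

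**Figure D1:**
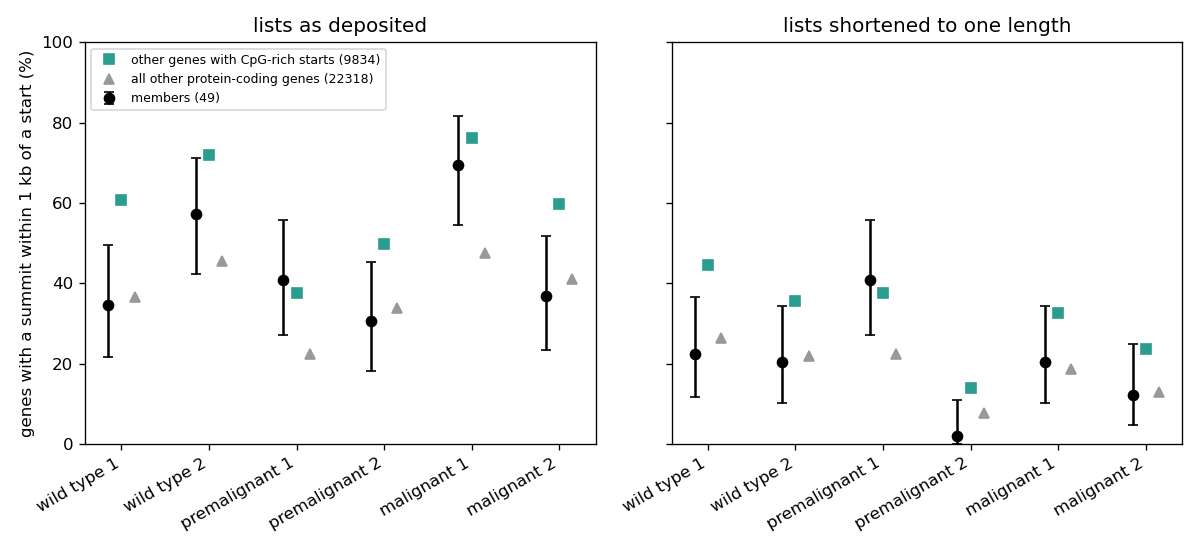
Share of genes with a UBTF summit within 1 kb of a start (%, vertical axis) in each library (horizontal axis), for the lists as deposited (left) and all shortened to 78074 peaks (right). Circles are the 49 members with 95% Clopper-Pearson intervals, triangles all other protein-coding genes and squares the other genes with CpG-rich starts, whose share exceeded that of the members in 5 of 6 deposited lists.

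Shortening all lists to the 78074 best peaks, the length of the shortest, left 22.4% and 20.4% of members listed in the wild type pair, 40.8% and 2.04% in the premalignant pair, and 20.4% and 12.2% in the malignant pair. The other protein-coding genes were then at 26.3% and 22%, 22.3% and 7.64%, and 18.8% and 13%. Premalignant replicate 1 is the shortest list and is unchanged by this step. Its members stayed at 40.8%, the highest share at equal length. The excess over other genes was -1.59 points in wild type replicate 2 and 1.63 in malignant replicate 1 at equal length, so only premalignant replicate 1 kept the excess it had. In premalignant replicate 2 a single member, Utp18, remained.

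By their median, listed members ranked lower than other listed genes in every deposited list. Their median percentile was 45.6 and 50.4 in the wild type pair, 37.5 and 29 in the premalignant pair, and 55.2 and 65.6 in the malignant pair. The other listed protein-coding genes had medians of 51.9 and 56.8, 52.9 and 66.4, and 60.5 and 71.8. The gap was widest in premalignant replicate 2. With lists shortened to one length the direction turned in malignant replicate 2, where the 6 members still listed had a median of 73.9 and other genes 57.7. At percentile 90 or more there were 11 of the 132 member summits over the 6 lists, at 7 members, and 6 of these summits were in malignant replicate 2, where 25.0% of other listed genes also reached that percentile.

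Across the 6 lists, 6 members were listed in all (12.2%) and 9 in none (18.4%). The background over the other protein-coding genes was 10.3% in all lists and 30.6% in none. Among the other genes with CpG-rich starts, 18.9% were in all lists and 5.47% in none. Members were thus less often listed in no library than protein-coding genes in general and more often than genes with CpG-rich starts, as counts without a test.

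**Figure D2:**
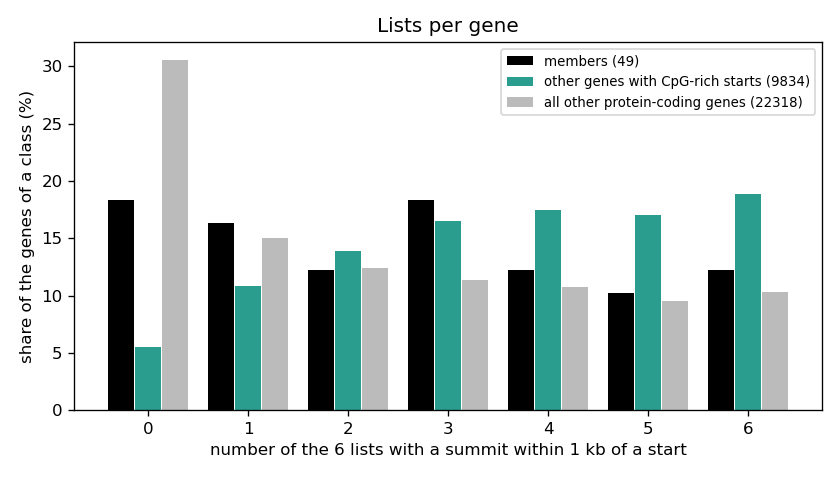
Number of the 6 lists in which a gene had a UBTF summit within 1 kb of a start (horizontal axis) against the share of genes of a class (%, vertical axis), for members (black), other genes with CpG-rich starts (green) and all other protein-coding genes (grey). Members in no list made up 18.4%, between the 5.47% and 30.6% of the other classes.

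The members are taken by role next, with the plot of percentiles by gene and library showing them all. Among 6 abundant nucleolar proteins, Gnl3, which encodes the nucleolar GTPase nucleostemin, was the most often listed. Its percentiles were 50.8 and 52.3 in wild type, 76.1 in premalignant replicate 2, and 83.8 and 65.8 in malignant replicates 1 and 2, with no summit in premalignant replicate 1. In all 5 lists the summit lay closer to the start of the neighbouring gene Pbrm1, 49 bp away, than to that of Gnl3. Ncl (nucleolin, an abundant RNA-binding protein) was in 4 lists at percentiles of 14.8 to 73.8, and Npm3, of the nucleoplasmin family, in 4 at 6.0 to 46.6. Nolc1, a chaperone of snoRNPs, was in 1 list at 7.83.

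Npm1 (nucleophosmin, a chaperone of the nucleolus) was listed in both wild type libraries, at 13.2 and 40.6, and in no premalignant or malignant library. It was the only member listed in both wild type and neither malignant library. Of the other protein-coding genes, 1.75% had that pattern and 6.31% were listed in both wild type and neither premalignant library, a pattern that 2 members had, Npm1 and, by 2 bp of the window, Tsr1. Mybbp1a, a nucleolar protein that binds MYB, was listed in both malignant libraries, at 19.4 and 66.0, and in no other.

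Of the 4 box C/D snoRNP proteins, which carry the methylation of rRNA riboses, Nhp2l1, the protein that binds the kink-turn of these RNAs, was listed in all libraries. Its percentiles were 27.6 and 48.3 in the wild type pair, 14.2 and 59.7 in the premalignant pair, and 39.4 and 84.5 in the malignant pair, and the stages overlapped. Fbl (fibrillarin, the methyltransferase) was in 3 lists, 1 of each stage, at 32.8 to 34.5. Nop56 and Nop58, the core proteins, were in 2 lists and 1 list, at 56.6 and 64.8 and at 26.9.

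Among the 4 box H/ACA snoRNP proteins, Dkc1 stood apart. It encodes dyskerin, the pseudouridine synthase, and its percentiles were 98.2 and 96.3 in the wild type pair, 94.3 and 71.7 in the premalignant pair, and 98.1 and 98.8 in the malignant pair. It had the highest mean percentile of all members, 92.9, and was the lowest of its own values in premalignant replicate 2. Its summits were all on the CT repeat shown above, between 5061 and 5089 bp downstream of the 5′ end of the gene (chrX:72341193-72355116, plus strand) and 5 to 33 bp before an internal transcript start. At the 5′ end itself Dkc1 had a summit in 0 of 6 lists. Gar1 was listed in malignant replicate 1 alone, at 85.2, Nhp2 in malignant replicate 2 alone, at 65.3, and Nop10 in no list, so that the other 3 proteins of the same particle shared no list.

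The 3 genes for enzymes that modify rRNA bases were seldom listed. Emg1, a pseudouridine methyltransferase, was in 1 list of each stage, at 58.8 in wild type replicate 2, 25.1 in premalignant replicate 1 and 83.8 in malignant replicate 1. Its neighbour Phb2 starts 144 bp away and was closer to the summit in 2 of the 3 lists. Nop2, a cytosine methyltransferase, was in 1 list at 9.22, and Nat10, the acetyltransferase of rRNA, in none.

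The small subunit processome is the largest group, with 15 genes, of which 7 and 12 were listed in the wild type pair, 9 and 5 in the premalignant pair, and 11 and 6 in the malignant pair. Utp18, of the UTP-B subcomplex, was listed in all 6, at 39.9 and 79.9 in the wild type pair, 2.64 and 86.9 in the premalignant pair, and 48.3 and 96.4 in the malignant pair. The premalignant libraries alone spanned most of this range. Wdr75, of the t-UTP subcomplex, which also takes part in transcription of rRNA genes, was listed in all 6 within a narrower range, at 61.5 and 64.3, 40.4 and 53.0, and 39.6 and 65.2 in the same order. The Wdr75 summits differed in place. They lay 1222 to 1252 bp downstream of the 5′ end in both wild type libraries, premalignant replicate 1 and malignant replicate 1. In premalignant replicate 2 the summit was at -924 bp, on a tandem repeat of 56 bp, and in malignant replicate 2 at -417 bp. Wdr43, the partner of Wdr75, was absent from wild type replicate 1. It was at 74.9 in wild type replicate 2, 64.9 and 54.9 in the premalignant pair, and 60.8 and 99.2 in the malignant pair. The value of 99.2 was the highest of any member.

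Nop14 and Mphosph10, both components of the processome, were listed in both wild type libraries, premalignant replicate 1 and malignant replicate 1. Nop14 was at 55.2, 70.3, 71.6 and 89.5 in these, and Mphosph10 at 74.0, 54.4, 50.7 and 91.0. In all of these lists the summit was closer to a neighbour's start than to the member's own, to Grk4 for Nop14 (231 bp between the starts) and to Mcee for Mphosph10 (377 bp). Dcaf13 (Slc25a32 158 bp away) and Utp15 (Ankra2 166 bp away) also had 4 summits each nearer to the neighbour. Dcaf13 was in 5 lists at 13.1 to 73.1 and Utp15 in 4 at 0.26 to 56.7.

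Noc4l, a partner of Nop14, was in 5 lists at 20.8 to 71.6, with 3 of its summits on the CA repeat shown above. Its starts lie 34 bp from those of Ddx51, a helicase gene of the same pathway, and both genes had the same summits and percentiles in all 5 lists, so UBTF at the 2 genes cannot be told apart. Utp20 was listed in wild type replicate 2 at 30.6, in malignant replicates 1 and 2 at 70.5 and 40.6, and in neither premalignant library. Its summit in malignant replicate 2 lay on a tandem repeat of 48 bp. Bms1, a GTPase, was in 3 lists at 36.9 to 83.1, Rrp9, which binds the guide RNA of the processome, in 3 at 2.99 to 32.8, and Imp4 in 2 at 22.0 and 60.5. Heatr1, Imp3 and Utp6 were in none, although Heatr1 belongs to the same subcomplex as Wdr43 and Wdr75 and Imp3 to that of Imp4 and Mphosph10.

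The late small subunit factors were Tsr1, Ltv1 and Rrp12. Tsr1, a GTPase-like protein of the cytoplasmic steps, was at 19.1 and 18.8 in wild type and at 24.6 and 93.8 in malignant replicates 1 and 2, with no premalignant summit inside the window. The nearest summit of premalignant replicate 2 lay 1002 bp from a start, 2 bp outside it, so whether Tsr1 counts as listed there rests on the limit of 1000 bp. In 3 of the 4 lists the summit was nearer to the start of Sgsm2, and its distance from the start of Tsr1 was -966 bp in wild type replicate 1. Ltv1 was in 1 list of each stage, at 26.4, 3.04 and 57.1, and Rrp12 in none.

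Of the 10 large subunit genes found, 2 and 3 were listed in the wild type pair, 3 and 3 in the premalignant pair, and 6 and 3 in the malignant pair. Wdr12, with Bop1 and Pes1 a part of the PeBoW complex that is needed for maturation of large subunit rRNA, was listed in all libraries. Its percentiles were 79.6 and 52.1 in the wild type pair, 64.7 and 12.9 in the premalignant pair, and 57.4 and 96.3 in the malignant pair, and its summits lay 18 to 151 bp downstream of its start in a UTR. Bop1 was in 2 lists at 9.79 and 55.1 and Pes1 in none, so the 3 subunits differed from one another in number of lists.

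Rrs1, which helps to load a ribonucleoprotein of the large subunit, was absent from wild type replicate 1. It was at 60.8 in wild type replicate 2, 4.68 and 73.2 in premalignant, and 79.5 and 93.4 in malignant replicates 1 and 2, where both malignant values exceeded all others. Rrp1b was listed in premalignant replicate 2 at 29 and in malignant replicates 1 and 2 at 81.4 and 59.7, that is, only in lists of the wide set. Mybbp1a and Rrp1b were the 2 members listed in both malignant and neither wild type library, a pattern that 3.29% of other protein-coding genes had. Nvl, an ATPase, was in 2 lists at 2.87 and 51.9, and Rrp1 and Noc3l in 1 each at 52.3 and 6.02. Ebna1bp2 and Nop16 were in none.

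Ddx18 was the most often listed of 4 DEAD-box helicases, the enzymes that unwind rRNA. Its percentiles were 59.2 and 56.4 in the wild type pair, 68.1 and 21.9 in the premalignant pair, and 48.0 and 8.83 in the malignant pair, so both malignant values were below both wild type values. In 5 of these lists the summit was on a tandem repeat. In wild type replicate 1 and both premalignant libraries it was the upstream repeat shown above, at -938, -919 and -932 bp from the start, and in wild type replicate 2 and malignant replicate 2 it was a repeat of 49 bp inside the gene, 8263 and 8254 bp from its 5′ end. Only in malignant replicate 1 was it off a repeat, 29 bp downstream of the 5′ end. Ddx10 was in 3 lists at 47.6 to 61.8 and Ddx56 in 1 at 9.22.

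Ddx21, a helicase that also senses the transcription of rRNA genes, was listed in wild type replicate 2 at 1.31 and in malignant replicates 1 and 2 at 55.3 and 16.6. With Mybbp1a, Tsr1 and Utp20 it made 4 members listed in both malignant and neither premalignant library, beside 4.59% of other protein-coding genes. Tsr1 is in this count only because its premalignant replicate 2 summit lay 1002 bp from a start. From the nearest start, the summits of malignant replicates 1 and 2 lay at -62 and -800 bp in Mybbp1a, and 240 and -804 bp in Ddx21. They lay at 178 and -417 bp in Utp20, and at -900 and -933 bp in Tsr1. Only at Tsr1 were they near each other. The opposite pattern, both premalignant and neither malignant library, was found at 0 members and 0.314% of other genes, and both premalignant and neither wild type library at 0 members and 0.435% of other genes. Within a stage, both libraries listed 15 members for the wild type, 10 for the premalignant and 15 for the malignant pair, beside 30.5%, 13.9% and 28.8% of other genes.

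**Figure D3:**
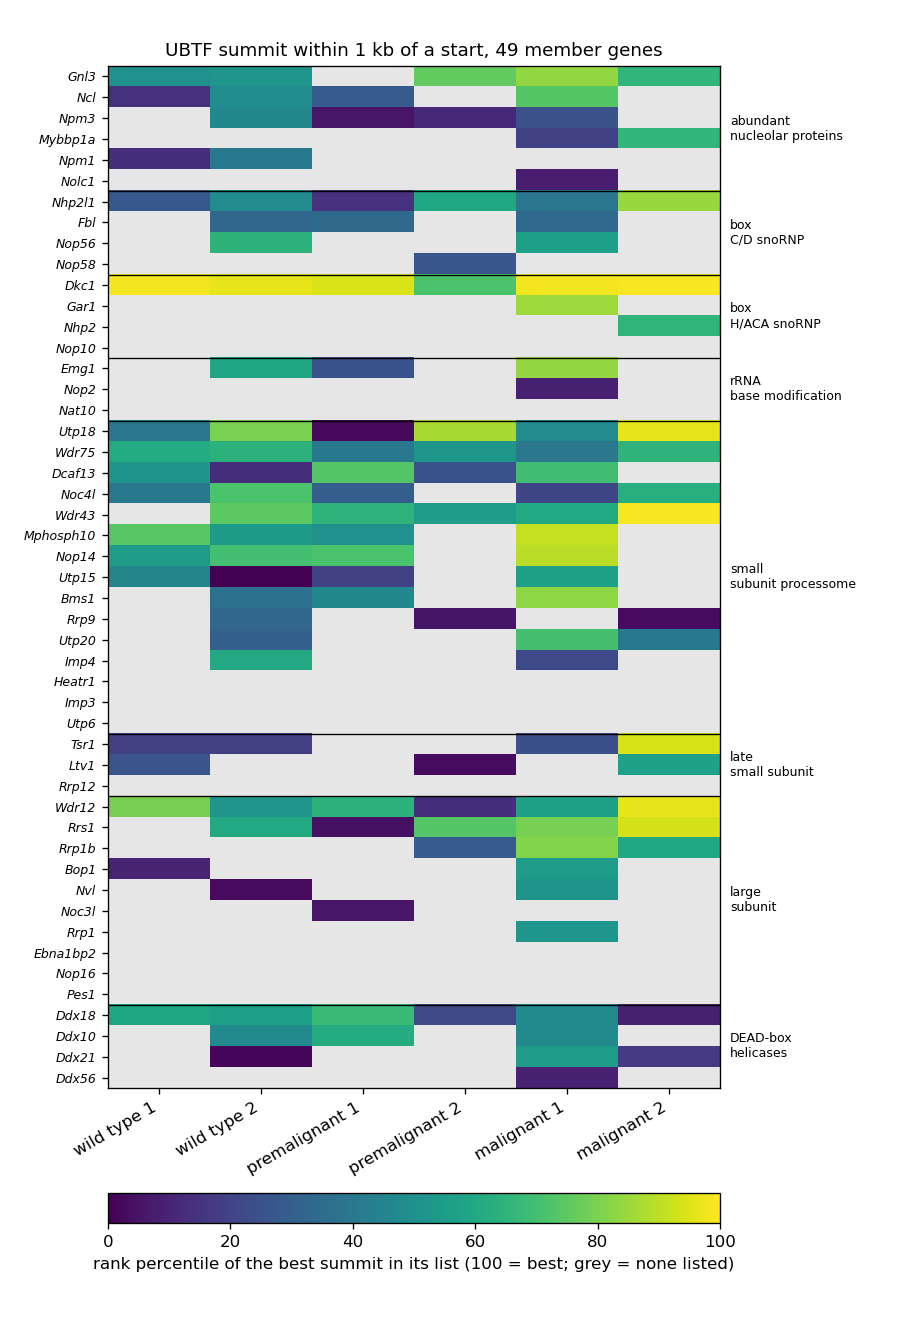
Rank percentile (colour, 0 to 100, where 100 is the best score of the list) of the best UBTF summit within 1 kb of a start for each of the 49 members (rows, grouped by role) in each of the 6 libraries (columns), with grey where no summit was listed. Dkc1 was at 71.7 or above in every library, and 9 members are grey throughout.

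The position of the summits was described by the share within 200 bp of a start, without a test. This held for 3 of 17 and 14 of 28 listed members in the wild type pair, 7 of 20 and 4 of 15 in the premalignant pair, and 19 of 34 and 5 of 18 in the malignant pair. As shares these were 17.6 to 55.9%, and the other listed genes with CpG-rich starts were between 55.4% and 63.2%. Members were below those genes in each library, by little in malignant replicate 1. The 84 other pathway genes described at the end ranged more widely, from 15.4% in premalignant replicate 2 and 21.1% in malignant replicate 2 to 70.0% in wild type replicate 1, so low shares were not particular to members. The median position of member summits was -321 and -9 bp in the wild type pair, negative values being upstream of the start. It was -4 and 88 bp in the premalignant pair, and 5 and -249 bp in the malignant pair. Over other listed protein-coding genes it was between 3 and 30 bp.

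Shared starts and repeats touched many of these positions. A neighbouring protein-coding gene started within 1 kb of 14 members, 12 of which were listed somewhere, and 33 of the 132 member summits were closer to a neighbour's start than to the member's. Over the 6 lists, 16 summits at 5 members (Dkc1, Ddx18, Noc4l, Wdr75 and Utp20) lay on tandem repeats. Per library these were 1 to 4 summits, or 2.94 to 22.2% of listed members, beside 2.25 to 7.48% of other listed genes with CpG-rich starts and 5.67 to 15.9% of all other listed genes. Whether reads map uniquely to these repeats was not tested. Leaving out summits on repeats gave differences between members and other genes of -0.26 and 12.1 points in the wild type pair, 16.0 and -5.45 in the premalignant pair, and 22.5 and -7.88 in the malignant pair. The sign was the same as with repeats in each library.

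**Figure D4:**
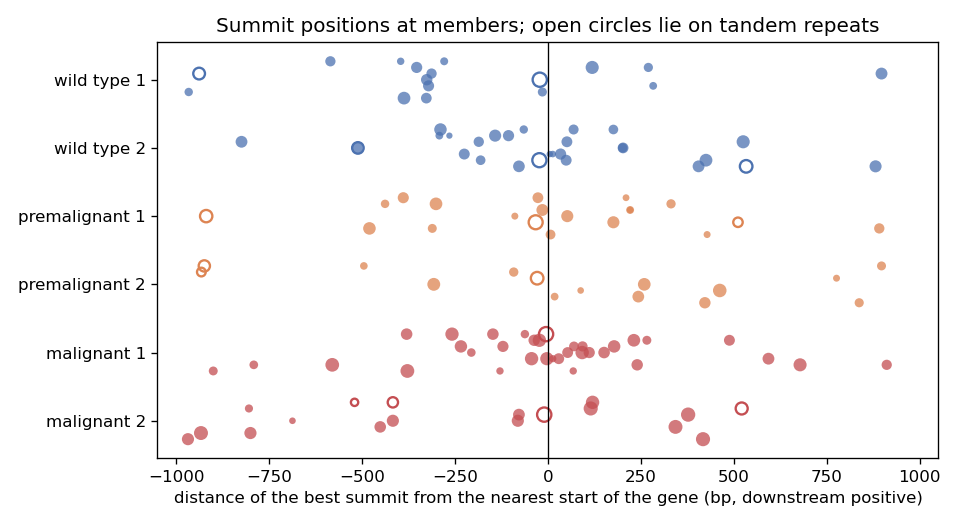
Distance of the best UBTF summit from the nearest start of the member gene (bp, horizontal axis, downstream positive) in each library (vertical axis), for listed members. Point area grows with the rank percentile, colour marks the stage, and open circles mark the 16 summits on tandem repeats, of which those of Dkc1 lie between 5 and 33 bp before an internal start.

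The E-box was more frequent at members than elsewhere. It was present within 500 bp of the gene's 5′ end in 25 of 49 members (51.0%), in 17% of other protein-coding genes and in 22.3% of other genes with CpG-rich starts. No test was run on these shares. Members with the E-box were listed in 8 and 15 of 25 cases in the wild type pair, 11 and 10 in the premalignant pair, and 18 and 11 in the malignant pair. Members without it were listed in 9 and 13, 9 and 5, and 16 and 7 of 24 cases. As shares these were 32% and 37.5%, 60% and 54.2%, 44% and 37.5%, 40% and 20.8%, 72% and 66.7%, and 44% and 29.2%, with and without the E-box, in the same order of libraries. The share with the E-box was the higher in 5 of 6 libraries, with the largest gap in premalignant replicate 2, where 10 of 25 and 5 of 24 were listed (intervals 21.1 to 61.3% and 7.13 to 42.2%, which overlap). Among other genes with CpG-rich starts, those with the E-box were listed less often in 5 of 6 libraries, by small amounts. With and without it they were at 57.0% and 61.8%, 68.6% and 72.9%, 35.6% and 38.2%, 47.0% and 50.7%, 76.6% and 76.2%, and 59.2% and 60.0%.

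The stages were compared over libraries with exact two-sided permutation tests, which with 2 libraries against 2 cannot give a p below 0.333. The mean share of listed members was 45.9% ± 15.9 in wild type cells, 35.7% ± 7.22 in premalignant cells and 53.1% ± 23.1 in malignant cells (SD, n = 2 libraries each). Premalignant minus wild type was -10.2 points, malignant minus premalignant was 17.3 points, and malignant minus wild type was 7.14 points (exact permutation p = 0.667 for each). In each comparison the values of the stages overlapped. The same differences over the other protein-coding genes were -13.0, 16.3 and 3.30 points. Within the narrow set, premalignant replicate 1 minus the wild type mean was -5.10 points. The malignant mean was 22.4 points above premalignant replicate 2, the comparison left in the wide set. Malignant minus wild type was -9.18 points without malignant replicate 1 and -4.08 without wild type replicate 1, the opposite sign, and 23.5 without malignant replicate 2. Premalignant minus wild type was 1.02 points without wild type replicate 2, also the opposite sign, and -5.10 without premalignant replicate 2. Malignant minus premalignant was 1.02 points without malignant replicate 1, 33.7 without malignant replicate 2 and 12.2 without premalignant replicate 2. With lists shortened to one length, premalignant minus wild type was 0 points and both other differences were -5.10 points. The signs of both differences from wild type thus changed when single libraries were left out. Malignant minus premalignant stayed positive then, at 1.02 to 33.7 points, and turned negative with shortened lists.

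The median percentile of listed members was 33.2 ± 5.98 for the premalignant, 48.0 ± 3.41 for the wild type and 60.4 ± 7.35 for the malignant pair (SD, n = 2 libraries). The pairs did not overlap in the deposited lists, which differ in length and in their highest FDR (7.31e-05 to 0.0496). Premalignant minus wild type was -14.8, malignant minus premalignant was 27.1, and malignant minus wild type was 12.4 (exact permutation p = 0.333 each, the smallest possible). Other listed protein-coding genes differed by 5.30, 6.52 and 11.8 in the same order, so the last difference was about that of all genes. Premalignant minus wild type was -10.6 in the narrow set, that is, without premalignant replicate 2, and malignant minus premalignant was 31.4 in the wide set. Without malignant replicate 2, malignant minus wild type was 7.17 and malignant minus premalignant 22.0, and without premalignant replicate 2 the latter was 22.9.

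The order of the stage means was kept under the other settings, but under several the pairs overlapped. The malignant pair stayed above both others with shortened lists, within 500 bp or 2 kb, and at an FDR of at most 0.01. It did not with percentiles taken among genes or with unlisted members at 0. With lists shortened to one length, the medians were 33.4 and 23.3 in the wild type pair, 37.5 and 3.16 in the premalignant pair, the latter from 1 member, and 42.1 and 73.9 in the malignant pair. Premalignant replicate 1 was then above both wild type libraries. Premalignant replicate 2 was above a wild type library at an FDR of at most 0.01 (46.3 against 45.6) and within 2 kb (48.6 against 45.6), and above both within 500 bp (47.4 against 41.7 and 43.2). With percentiles taken among genes in place of peaks, malignant minus wild type was 0.71 (exact permutation p = 1).

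Single genes were compared by limma on the normal scores of their ranks, over the 2314 protein-coding genes listed in all 6 libraries. Of these 6 were members, Ddx18, Dkc1, Nhp2l1, Utp18, Wdr12 and Wdr75. No gene was called at an adjusted p under 0.05 in any of the 3 comparisons (0% of genes in each direction), while 113, 58 and 182 genes had an unadjusted p under 0.05 for premalignant minus wild type, malignant minus premalignant and malignant minus wild type. Among the 6 members the adjusted limma p ranged from 0.845 to 1.00. The difference with the lowest p was that of Dkc1 between premalignant and wild type cells, -1.12 ± 0.74 normal scores (SE, limma, adjusted p = 0.957, n = 2 libraries each). The median difference over the 6 members was -0.32, 0.50 and -0.02 normal scores in the 3 comparisons, beside 0.02, 0.00 and 0.06 over the other genes tested. In simulated data made like malignant against wild type, shifts of 1, 2 and 3 normal scores were recovered for 0%, 8.96% and 31.8% of changed genes, so differences of the size seen at members would mostly not be called.

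The other genes of the pathway, 84 in a list kept apart from the members, were listed in 35.7% and 47.6% of cases in the wild type pair, 20.2% and 31.0% in the premalignant pair, and 67.9% and 45.2% in the malignant pair. In premalignant replicate 1 this was below the 40.8% of members and near the 22.3% of all other genes. Only 6 of the 84 were in all lists (Ddx27, Exosc2, Exosc3, Gnl2, Naf1 and Rrp8), so 6 could be tested by limma, of which 0 were called in either direction at adjusted p under 0.05. Gnl2, a nucleolar GTPase of the large subunit, was at 99.1 to 99.8 in all 6 lists, above every member except Wdr43 in malignant replicate 2. Exosc2, a subunit of the RNA exosome, was at 83.1 to 99.7 with its summit on a tandem repeat in all 6. CpG-rich starts were found in 90.5% of these genes and the E-box in 46.4%, close to the 91.8% and 51.0% of members.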

How the data were processed

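The authors sequenced UBTF and input libraries from pre-B cells of 3 stages. Per the labels and the study's methods, reads were processed with CASAVA 1.8.2 and mapped to mm9 joined to the rDNA repeat. The aligner is Bowtie in the labels and bowtie2 in the study's methods. Duplicates were removed with Picard 1.110, and peaks were called per library with SPP. The deposited lists hold the caller's score, unscaled between libraries, and a linear false discovery rate in the q-value column. They give no read counts, so depth is unknown. Peaks on rDNA were left out, and the study's step of keeping peaks reproducible between replicates was not applied.

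Summits were assigned to 70051 transcript starts of GENCODE M1 (mm9), a step tested on simulated peaks. Scores served only for ranking within a list. Stage differences were tested by exact permutation over libraries. Genes listed in all libraries were compared with limma 3.58.1 (R 4.3.3), without covariates and with Benjamini-Hochberg adjustment. Other steps used Python 3.11.15, numpy 2.4.6, scipy 1.17.1 and pandas 2.3.3. Members, roles and gene lists were chosen with earlier results of these data known. Values in every library are given for the 10 members of highest mean percentile (unlisted as 0), the members of lowest mean, and members listed in both libraries of one stage and neither of another. The rule named the 6 lowest, and 9 were tied at 0, so all 9 are named. Alternatives were list length, distance, which starts count, FDR, peak overlap, background, left-out libraries and the replicate block. Splits by width set and by tandem repeat were added after seeing the data.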

Additional observations from a re-analysis of the deposited data

How the results depend on the processing

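Of 151 values under alternative settings, 128 stayed within the spread between replicates, within the counting interval or, for gene counts, within 1.5 times. Share differences between stages were judged against an SD between replicates of 12.3 to 19.8 points. Changes of sign within it, such as 7.14 to -5.10 for malignant minus wild type, were counted as kept. A further 34 of the values kept were limma counts of 0. The tally is therefore a weak measure of steadiness. The share of members moved once, for malignant against premalignant, to -5.10 points with lists shortened to one length. With the same lists malignant minus wild type also came to -5.10, the opposite sign, and premalignant minus wild type to 0. The median percentile was less steady. Premalignant minus wild type was -8.02 with shortened lists, -1.54 within 500 bp, -5.45 within 2 kb, -6.12 at an FDR of at most 0.01 and -6.56 with unlisted members at 0. Malignant minus premalignant was 37.7 with shortened lists, 15.7 within 2 kb, 18.5 at that FDR, 16.7 with percentiles taken among genes and 19.7 with unlisted members at 0. Malignant minus wild type was 29.6 with shortened lists, 25.9 within 500 bp and 0.71 with percentiles taken among genes. The cause was not tested.

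The difference between members and other protein-coding genes was 1.63 points in malignant replicate 1 and -1.59, the opposite sign, in wild type replicate 2 with shortened lists. Against other CpG-rich starts it was -26.0 and -14.8 in the wild type pair, 3.18 and -19.3 in the premalignant pair, and -6.89 and -23.1 in the malignant pair.

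Leaving out 1 library at a time gave share differences of -21.4 to 1.02 points (premalignant minus wild type), 1.02 to 33.7 points (malignant minus premalignant) and -9.18 to 23.5 points (malignant minus wild type). Median percentiles differed by -19.0 to -10.6, 22.0 to 32.3 and 7.17 to 17.6 in the same order, and limma called 0 genes each time.

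With the replicate number as a block, limma called 2 genes between premalignant and wild type, 9 between malignant and wild type and 0 between malignant and premalignant, none of them members. Deviations of same-numbered libraries correlated at 0.0081 between premalignant and wild type, 0.065 between malignant and wild type and 0.28 between malignant and premalignant, and these libraries share only a number. With shortened lists 495 genes and no member were tested.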
